A study of Chlorocebus sabaeus with 3 samples.

Results

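The genes described here are 8 genes of antigen presentation, picked by name from the 33994 genes measured in cell-free RNA of vervet monkey (Chlorocebus sabaeus) amniotic fluid. The 3 genes of the class II pathway are MHC-DPB1 (listed as LOC103221682), CD74 and CIITA, and the 5 of the class I pathway are NLRC5, B2M, TAP1, TAP2 and TAPBP. All 8 had reads in every library. The RNA came from amniotic fluid supernatant, the fluid left after cells are removed, with 1 library for each of 3 outcomes. The stillborn pregnancy has the sex label M, the spontaneous abortion NA and the live one F. Below, the libraries are called stillborn, abortion and alive, and 3 values given in a row follow that order. The labels give neither the stage of pregnancy at sampling nor the time between fetal death and sampling, and no outcome has a second library. Libraries are therefore compared with each other without a p-value, and outcome cannot be told apart from any other difference between the pregnancies.

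Antigen presentation works through 2 related routes. In the class I route, the transporter formed by TAP1 and TAP2 carries peptides from the cytosol into the endoplasmic reticulum, tapasin (TAPBP) holds the transporter close to an empty class I molecule, and beta-2-microglobulin (B2M) is the light chain that completes it. In the class II route, paired alpha and beta chains such as those of DR, DQ and DP travel to endosomes with the invariant chain CD74, which is replaced there by a peptide. NLRC5 is the coactivator of class I genes and CIITA that of class II genes and CD74, both on promoters bound by RFX, CREB and NF-Y factors, and interferon gamma induces both routes. Nearly all nucleated cells carry class I, whereas class II belongs mainly to dendritic cells, B cells and macrophages, and villous trophoblast is known for carrying little of either.

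The libraries held 17749954 (stillborn), 29926352 (abortion) and 20220899 (alive) assigned reads. Levels are given in RPKM, reads scaled to gene length and to the assigned reads of the library, with the number of whole reads recovered from the deposited value and an exact Poisson 95% interval. These intervals, and those of all ratios, cover the counting error of reads only, since each outcome has 1 library. The amplified libraries carry no molecular identifiers, so copies of 1 molecule count as separate reads and the intervals may be too narrow. Markers of epithelium, the lining tissue in contact with the fluid, were at a summed RPKM of 490, 733 and 873 over 8 genes.

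MHC-DPB1, the beta chain of the DP molecule, had the widest spread of the 8 genes, with 34.6 times more RPKM in its highest than in its lowest library. It stood at RPKM 30.7 (28.3 to 33.3, 595 reads) in the stillborn library, 0.888 (0.595 to 1.28, 29 reads) in the abortion library and 30.1 (27.9 to 32.5, 664 reads) in the alive library. The stillborn and alive levels overlapped, and the abortion level lay far below both. After scaling between libraries (TMM, the trimmed mean of M-values), MHC-DPB1 was 33.0-fold lower in the abortion than in the alive library (95% interval 22.7 to 49.6). It was 37.7-fold higher in the stillborn than in the abortion library (25.9 to 56.7). Between stillborn and alive the ratio was 1.14 (1.02 to 1.28), and with total assigned reads as the scale its interval, 0.912 to 1.14, held 1.

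CD74, the invariant chain that escorts class II molecules, had its lowest level in the same library but did not share the rest of the pattern. Its RPKM was 2.29 (1.99 to 2.62, 209 reads) in the stillborn, 0.383 (0.292 to 0.494, 59 reads) in the abortion and 0.913 (0.739 to 1.12, 95 reads) in the alive library. The 3 intervals did not overlap. CD74 was 6.50-fold higher in the stillborn than in the abortion library (4.85 to 8.83) and 2.80-fold higher than in the alive library (2.19 to 3.61). The abortion library was 2.32-fold below the alive library (1.66 to 3.27).

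CIITA, the coactivator without which class II genes and most CD74 stay silent in antigen-presenting cells, was close to the limit of detection. It had 9 reads in the stillborn, 2 in the abortion and 29 in the alive library, or RPKM 0.0109 (0.00496 to 0.0206), 0.00143 (0.000173 to 0.00517) and 0.0307 (0.0206 to 0.0441). The alive library was the highest, and its interval only touched that of the stillborn library. The abortion library was lower than the alive one by a ratio of 0.0479, with an interval from 0.00554 to 0.189 that rests on 2 reads. The stillborn library was 2.53-fold lower than the alive one (1.17 to 6.07), the opposite order to CD74.

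**Figure D1:**
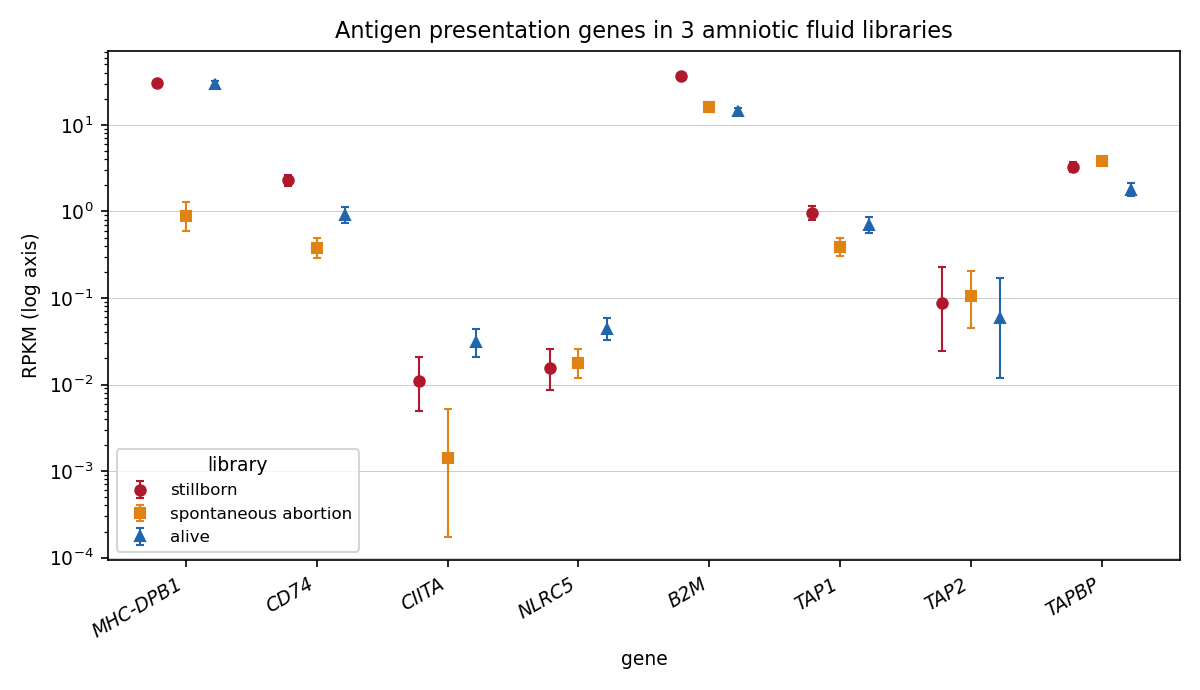
RPKM (log axis) of the 8 antigen presentation genes, with exact Poisson 95% intervals as bars. MHC-DPB1 is at 30.7 and 30.1 in the stillborn and alive libraries and at 0.888 in the abortion library, while B2M and TAPBP span no more than 2.56-fold between their highest and lowest library.

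Ratios between genes inside 1 library do not depend on scaling between libraries. MHC-DPB1 over CD74, as a ratio of RPKM, was 13.4 (11.4 to 15.8) in the stillborn, 2.32 (1.43 to 3.67) in the abortion and 33.0 (26.5 to 41.3) in the alive library. None of the 3 intervals overlapped, so MHC-DPB1 and CD74 did not move in proportion. CIITA over CD74 was 0.00474 (0.00214 to 0.00918), 0.00373 (0.000442 to 0.0141) and 0.0336 (0.0214 to 0.0514) in the same order. The alive library had the most CIITA for its CD74, and the other libraries could not be separated at this depth.

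The files hold 7 further MHC class II genes that the RefSeq table of names identifies. MHC-DRA, the alpha chain of DR, was at RPKM 18.4 (16.7 to 20.3, 416 reads), 3.83 (3.24 to 4.51, 146 reads) and 11.5 (10.2 to 12.9, 296 reads). It shared the order of CD74, and CD74 over MHC-DRA was 0.124 (0.105 to 0.147), 0.1 (0.0726 to 0.136) and 0.0794 (0.0624 to 0.1). MHC-DRA was 2.92-fold lower in the abortion than in the alive library (2.39 to 3.58), against the 33.0-fold of MHC-DPB1. MHC-DPB1 over MHC-DRA was accordingly 1.67 (1.47 to 1.90) in the stillborn, 0.232 (0.150 to 0.347) in the abortion and 2.62 (2.28 to 3.01) in the alive library.

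MHC-DQB1, the beta chain of DQ, was highest in the stillborn library and low in both others, at RPKM 2.73 (117 reads), 0.623 (45 reads) and 0.472 (23 reads). The stillborn library was 6.48-fold above the alive one (4.12 to 10.6), and the abortion library did not differ from the alive one beyond counting error (ratio 1.36, 0.805 to 2.35). MHC-DQA1, the alpha chain of DQ, had 12 reads in the stillborn, 0 in the abortion and 9 in the alive library. In the abortion library 3 reads, the limit taken here for 0, would be RPKM 0.0616, and the exact Poisson upper limit was RPKM 0.0758. MHC-DQB1 over MHC-DRA was 0.148 (0.120 to 0.183), 0.163 (0.114 to 0.229) and 0.0410 (0.0256 to 0.0627), so the alive library had the least MHC-DQB1 for its MHC-DRA.

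The genes of peptide exchange were unequal too. MHC-DMA, a chain of the DM molecule that removes the CD74 fragment from class II, was at RPKM 1.77 (112 reads), 0.197 (21 reads) and 0.0556 (4 reads), 35.7-fold higher in the stillborn than in the alive library (13.6 to 133). Its partner MHC-DMB had 1, 2 and 6 reads, at which depth no difference could be seen. MHC-DOB and MHC-DOA, chains of DO, a modulator of DM, had 11, 4 and 0 reads and 1, 0 and 0 reads. The stillborn library therefore held reads of all 8 MHC class II genes that have a symbol, though only 1 read each of MHC-DMB and MHC-DOA. The other 2 libraries held reads of 6 each. Class II genes without a symbol in the RefSeq table were not analysed, and no DR beta or DP alpha chain is among the 8.

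**Figure D2:**
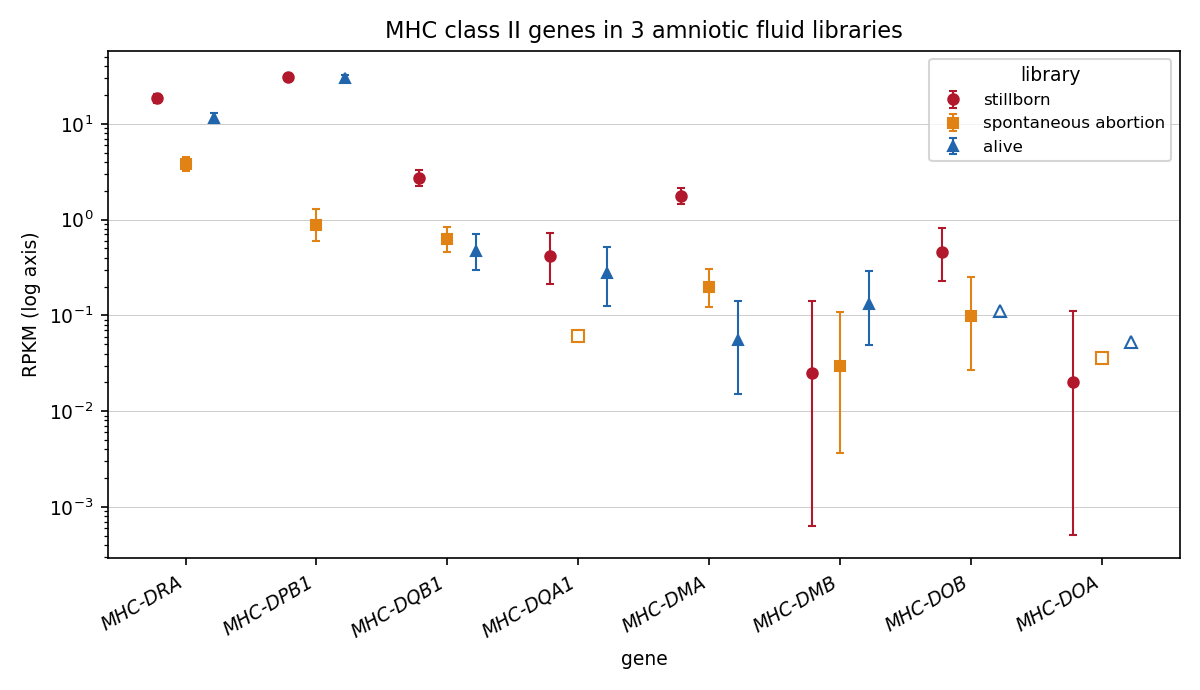
RPKM (log axis) of the 8 MHC class II genes with a symbol in each library, with exact Poisson 95% intervals as bars and open symbols at the level of 3 reads where a library had 0 reads. MHC-DPB1 is the gene with the deepest drop in the abortion library, to 0.888, whereas MHC-DMA and MHC-DQB1 are high in the stillborn library alone, at 1.77 and 2.73.

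Of the class I genes, B2M was the most deeply covered. B2M stood at RPKM 37.1 (35.3 to 38.9, 1656 reads) in the stillborn, 16.2 (15.3 to 17.1, 1219 reads) in the abortion and 14.5 (13.5 to 15.6, 738 reads) in the alive library. The stillborn level lay above the others, whose intervals overlapped. Scaled, B2M was 2.86-fold higher in the stillborn than in the alive library (2.62 to 3.12) and 2.49-fold higher than in the abortion library (2.31 to 2.69). Abortion over alive gave 1.15 (1.05 to 1.26).

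TAP1, a subunit of the peptide transporter, was at RPKM 0.965 (0.787 to 1.17, 102 reads), 0.393 (0.306 to 0.496, 70 reads) and 0.706 (0.564 to 0.873, 85 reads). Its order was that of CD74 and MHC-DRA rather than that of B2M. TAP1 was 2.67-fold higher in the stillborn than in the abortion library (1.95 to 3.68) and 1.53-fold higher than in the alive library (1.14 to 2.06). The abortion library was 1.75-fold below the alive one (1.26 to 2.43). For its B2M, the alive library held the most TAP1, with a ratio of 0.0486 (0.0384 to 0.0610) against 0.0260 (0.0211 to 0.0318) in the stillborn and 0.0243 (0.0188 to 0.0309) in the abortion library.

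TAP2, the partner of TAP1, was at the edge of detection with 4, 8 and 3 reads, or RPKM 0.0884 (0.0241 to 0.226), 0.105 (0.0453 to 0.207) and 0.0582 (0.0120 to 0.170). The 3 intervals overlapped, and a ratio as large as 11.6 or as small as 0.288 between stillborn and alive would fit these reads. A difference in TAP2 was not detectable at this depth.

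TAPBP, which bridges the transporter and class I, was lowest in the alive library. It was at RPKM 3.29 (2.86 to 3.76, 213 reads) in the stillborn, 3.81 (3.45 to 4.19, 416 reads) in the abortion and 1.79 (1.5 to 2.12, 132 reads) in the alive library. The intervals of the stillborn and abortion libraries overlapped, and that of the alive library lay below both. TAPBP was 2.06-fold higher in the stillborn (1.65 to 2.58) and 2.19-fold higher in the abortion than in the alive library (1.8 to 2.68). Relative to TAP1 it was at 3.41 (2.68 to 4.36), 9.70 (7.52 to 12.7) and 2.54 (1.92 to 3.37), so the abortion library had the most TAPBP for its TAP1. Relative to B2M it was at 0.0887 (0.0766 to 0.102), 0.235 (0.210 to 0.263) and 0.123 (0.102 to 0.149), again with the abortion library on top.

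NLRC5, the class I coactivator, had 15, 29 and 48 reads, or RPKM 0.0156 (0.00874 to 0.0258), 0.0179 (0.0120 to 0.0257) and 0.0439 (0.0323 to 0.0582). The alive library was above the others without overlap. NLRC5 was 2.51-fold lower in the stillborn (1.38 to 4.83) and 2.38-fold lower in the abortion than in the alive library (1.47 to 3.92). The losses did not differ beyond counting error (ratio 0.949, 0.473 to 1.83). Both coactivators thus had their highest level in the alive library, where the class I light chain B2M was at 14.5. CIITA over NLRC5 was 0.695 (0.268 to 1.70), 0.0799 (0.00924 to 0.316) and 0.7 (0.426 to 1.13), lowest in the abortion library, where CIITA had 2 reads.

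**Figure D3:**
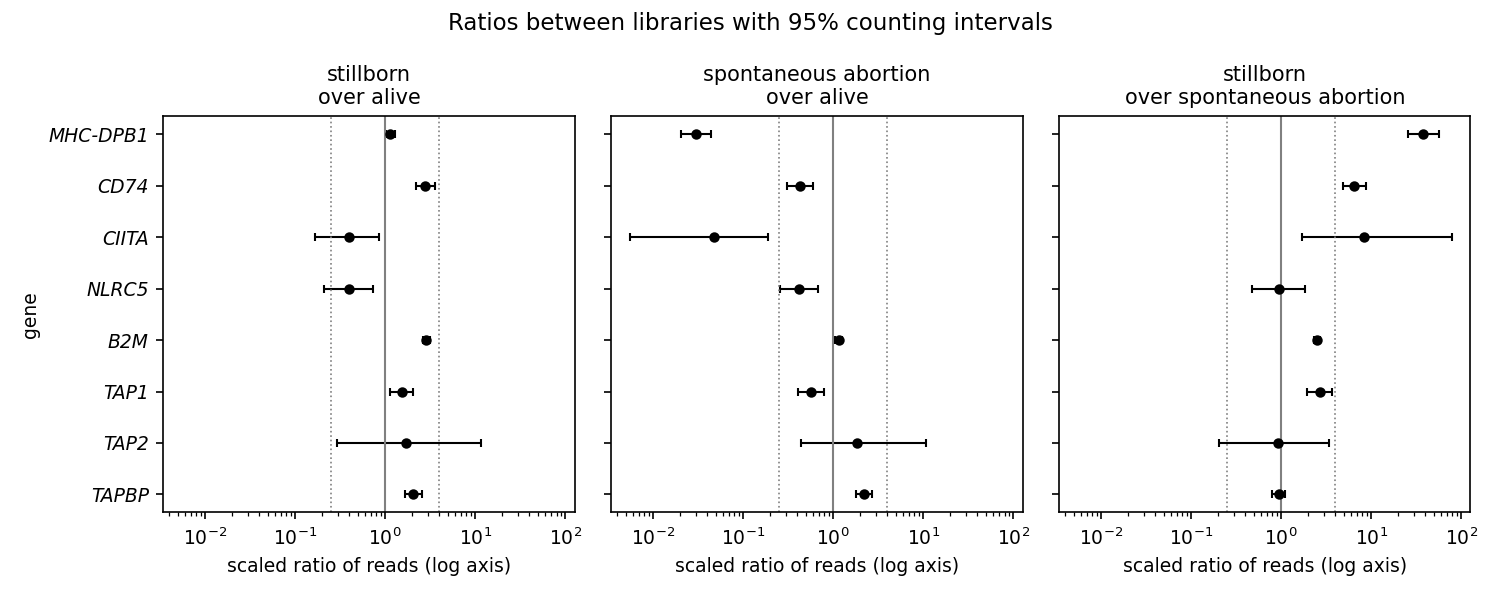
Ratio of recovered reads after TMM scaling (log axis) of the 8 members in the 3 comparisons, with exact Clopper-Pearson 95% intervals as bars, a solid line at 1 and dotted lines at 4-fold either way. MHC-DPB1 passes the dotted lines in both comparisons with the abortion library (0.0303 and 37.7) and lies near 1 for stillborn over alive (1.14).

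Counted over the members, a gene was called apart when it differed 4-fold or more after scaling, with an interval that left out 1 and at least 30 reads in the higher library. For stillborn over alive, 0 of 8 members were apart, beside 2.73% of all 23275 genes with recovered reads called higher and 1.87% called lower. For abortion over alive, 1 of 8 (MHC-DPB1) was apart as lower, beside 0.898% of all genes, and 0 as higher, beside 1.37%. For stillborn over abortion, 2 of 8 (MHC-DPB1 and CD74) were apart as higher, beside 1.68%, and 0 as lower, beside 0.980%. Only 6, 6 and 5 of the 8 members had 30 reads in the higher library of these comparisons, and among genes with that depth the shares called lower in the second comparison and higher in the last were 1.51% and 2.81%.

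With 2-fold in place of 4-fold, B2M, CD74 and TAPBP were higher and NLRC5 lower in the stillborn than in the alive library, where 7.60% of all genes were called higher and 7.24% lower. With total assigned reads as the scale TAPBP fell short of that fold, at 1.84. For abortion over alive TAPBP was higher, beside 4.58%, and MHC-DPB1, CD74 and NLRC5 were lower, beside 3.40%. For stillborn over abortion 4 members were higher (MHC-DPB1, CD74, B2M and TAP1), beside 4.49%, and 0 lower, beside 4.46%. The 3 comparisons share libraries, so these counts are not independent of each other.

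**Figure D4:**
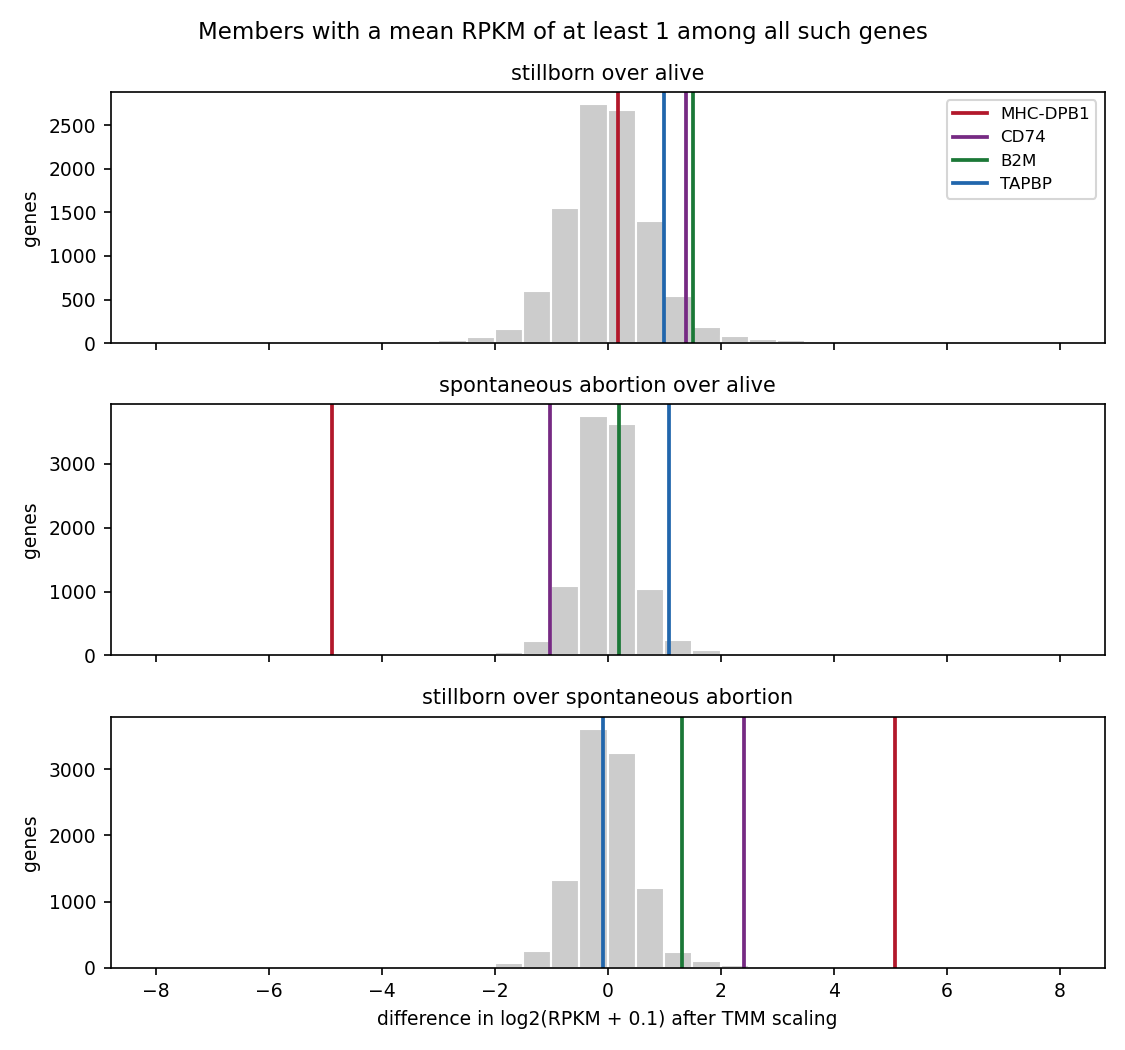
Number of genes by difference in log2(RPKM + 0.1) after TMM scaling, for the genes that average RPKM 1 or more, with the 4 members that reach that mean as vertical lines. In the comparison of abortion with alive, MHC-DPB1 is at -4.89, CD74 at -1.03, B2M at 0.20 and TAPBP at 1.09, around a median of all genes of -0.01.

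Partners of the class I route did not show one common direction. Of 13 genes of peptide loading and supply, 0 were apart in any of the 3 comparisons, where the shares of all genes called in each direction ran from 0.898% to 2.73%. A count of 0 in a list of this length is near that background, here and for the lists of similar length below. Over the 12 that average RPKM 1 or more, the median difference in log2(RPKM + 0.1) was 0.11 for stillborn over alive, 0.07 for abortion over alive and 0.17 for stillborn over abortion, where all genes had medians of -0.01, -0.01 and -0.02. The proteasome activator subunit PSME1 led the list at RPKM 152, 144 and 212. The chaperones CALR and HSPA5 were at 30.7, 26.4 and 24.2 and at 24.1, 13.3 and 11.6, with the stillborn library highest in both, as for B2M. PSMB8 and PSMB9, peptidases of the immunoproteasome, were at 1.68, 1.97 and 3.39 and at 2.57, 4.08 and 5.74, with the alive library highest in both.

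In the RefSeq table PSMB8 lies between TAP2 and TAP1, and PSMB9 next to TAP1 on its other side. These neighbours differed in order between libraries. PSMB9 over TAP1 was 2.67 (1.78 to 3.92) in the stillborn, 10.4 (7.58 to 14.3) in the abortion and 8.13 (6 to 11.0) in the alive library. TAP1 was highest in the library in which PSMB9 was lowest.

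Some partners of the class II route were highest in the stillborn library. Of 9 genes of endosomal processing and loading, 3 were higher in the stillborn library by the 4-fold rule against each of the others and 0 were lower, beside 2.73% and 1.68% of all genes called higher. These were CTSB, a lysosomal cathepsin, IFI30, the thiol reductase that opens disulfide bonds of antigens, and MHC-DMA. CTSB was at RPKM 156, 34.0 and 37.6 and IFI30 at 32.4, 3.43 and 3.41. IFI30 was 10.6-fold higher in the stillborn than in the alive library (8.27 to 13.8), and its ratio of abortion over alive was 1.03 (0.755 to 1.42). LGMN, an asparaginyl endopeptidase of the same compartment, was at 26.7, 8.37 and 7.90. SPPL2A, a protease that cuts the membrane stub of CD74, was at 6.30, 6.32 and 4.36, and its ratio of stillborn over abortion was 1.09 (0.964 to 1.22). MHC-DMB, with 6 reads at most, was highest in the alive library. The median difference over the 5 genes that average RPKM 1 or more was 1.90 for stillborn over alive, 0.04 for abortion over alive and 1.78 for stillborn over abortion. MHC-DPB1 did not follow these genes: it was as high in the alive as in the stillborn library. The RPKM of CTSB, IFI30 and LGMN in the alive library was close to that in the abortion library. CTSL, another cathepsin, was at 3.69, 1.09 and 1.79, and its ratio of abortion over alive was 0.627 (0.502 to 0.782).

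None of the factors that bind MHC promoters differed by 4-fold. Of 8 genes for RFX, CREB, ATF and NF-Y factors, 0 were apart in any comparison, and the medians were 0.05, 0.11 and -0.15. CREB1 was at RPKM 4.11, 6.07 and 4.59, NFYA at 2.82, 3.58 and 4.12, and RFX5 at 1.92, 1.66 and 1.75. Smaller differences went beyond counting error. ATF1, a factor of the CREB family, was at 2.79, 2.36 and 1.16, above the alive library by 2.70-fold in the stillborn (2.42 to 3.01) and 2.10-fold in the abortion library (1.89 to 2.33). RFXANK, another RFX subunit, was at 0.676, 1.13 and 1.69, with the same order as NLRC5, and was 2.24-fold lower in the stillborn than in the alive library (1.8 to 2.81).

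No gene of the interferon gamma or type I interferon lists was called apart by the 4-fold rule. A few type I targets were, like MHC-DPB1, lowest in the abortion library, on a smaller scale. These lists do not hold every gene that responds to interferon: IFI30 and CD40, which were apart, are counted on other lists, and GBP1 and GBP5 were not analysed. IFNG, the cytokine that induces both routes, had 0 reads in all 3 libraries, and so did its target CXCL11; 0 reads still allow 3, or 0.169, 0.1 and 0.148 RPM (reads scaled to the library total). IRF1, a transcription factor that interferon gamma induces and an activator of MHC genes, was at RPKM 0.625, 0.768 and 0.848. IFNGR2, a receptor chain, was at 26.6, 16.8 and 13.2, and the kinase JAK1 at 26.7, 37.5 and 57.4. GBP2, a guanylate-binding protein, was at 8.60, 18.2 and 18.5. Of 14 genes of that pathway 0 were apart in any comparison, with medians of 0.26, 0.25 and 0.05. IDO1, of the same list, had 11, 4 and 0 reads, too few for a call. Its ratio of stillborn over abortion was 5.05 (1.5 to 21.7). Of 16 targets of type I interferon 0 were apart as well, and 12 had the mean RPKM that entered medians of -0.12, -0.57 and 0.33. Of these 12, 1 was above 0 for abortion over alive. IFI6 was at 86.5, 44.9 and 85.1, OAS1, an antiviral enzyme, at 15.6, 7.69 and 15.3, and its relative OAS2 at 4.42, 1.66 and 5.41. In these genes the abortion library was below the alive one by ratios of 0.542, 0.517 and 0.316, and stillborn over alive gave 1.14, 1.14 and 0.914, against 0.0303 and 1.14 for MHC-DPB1. IFIT3 was at 23.2, 17.2 and 23.8 and IFIT2 at 16.5, 17.4 and 21.1. Some targets were higher in the abortion than in the alive library. IFI44L was 1.39-fold higher there (1.27 to 1.53) and RSAD2, whose mean of RPKM 0.477 kept it out of the medians, 3.03-fold (2.06 to 4.57).

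Costimulatory and related surface genes of antigen-presenting cells ranged widely in depth. CD40, a receptor for T cell help, was at RPKM 1.37 (49 reads), 0.713 (43 reads) and 0.123 (5 reads), apart as higher than alive in both losses, at 12.5-fold (5 to 40.2) and 5.97-fold (2.37 to 19.3), beside 2.73% and 1.37% of all genes called higher. CD83 had 66, 22 and 24 reads and was 5.51-fold higher in the stillborn than in the abortion library (3.35 to 9.37). CD80 and CD86 had at most 23 and 10 reads. CD274, the ligand of an inhibitory T cell receptor, was the best covered with 684, 634 and 281 reads, or RPKM 2.44, 1.34 and 0.880.

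Markers of leukocytes differed between the same libraries, and in bulk cell-free RNA fewer cells of a type and less RNA per cell cannot be told apart. The summed RPKM of 9 pan-leukocyte genes was 47.1 in the stillborn, 9.50 in the abortion and 11.8 in the alive library, and that of 12 monocyte and macrophage genes 61.5, 13.6 and 19.9. Apart as higher in the stillborn than in the alive library were 5 of the 9 (PTPRC, CD53, LAPTM5, CD52 and ITGB2) and 3 of the 12 (MRC1, C1QB and MSR1), beside 2.73% of all genes. The same 8 genes were also higher than in the abortion library, with CD14, TYROBP and FCER1G added, beside 1.68%. Other genes of these lists did not differ between stillborn and alive beyond counting error. These included CSF1R (ratio 1.3, 0.878 to 1.92), CD163 (0.584, 0.258 to 1.24), C1QC (1.06, 0.411 to 2.68) and SPI1 (0.717, 0.279 to 1.72). By mean RPKM, LCP1, an actin-bundling protein, led the pan-leukocyte list at RPKM 19.6, 8.23 and 9.28, followed by LAPTM5, a lysosomal protein of haematopoietic cells, at 23.7, 1.04 and 1.83. FCER1G, a signalling chain of Fc receptors, led the monocyte and macrophage list at 20.8, 2.49 and 6.20, followed by CD68, a lysosomal glycoprotein of macrophages, at 14.9, 5.46 and 4.37. FCER1G, like CD74, MHC-DRA and TAP1, was highest in the stillborn and lowest in the abortion library. CD14, the monocyte receptor for endotoxin, had 43, 9 and 53 reads and was, like MHC-DPB1, low in the abortion library alone. It was 8.48-fold lower there than in the alive library (4.15 to 19.6), with a ratio of 1.03 for stillborn over alive (0.675 to 1.58). The part of these cells in the class II levels was not tested.

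Several defining markers of dendritic, B and T cells were at 0, while other genes of these lists had reads. Of 15 dendritic cell genes, XCR1, IRF4 and FCER1A had 0 reads in all libraries, and the summed RPKM was 2.28, 1.45 and 2.77. FLT3, a receptor of dendritic cells and their progenitors, had 42, 5 and 344 reads, ITGAX, an integrin of myeloid cells, 78, 3 and 16, and WDFY4, a gene of cross-presentation, 148, 3 and 1. The transcription factors TCF4 and IRF8 had reads throughout, 628, 1637 and 919 for TCF4 and 57, 78 and 23 for IRF8. FLT3 was 99.1-fold lower in the abortion (42.0 to 307) and 6.43-fold lower in the stillborn than in the alive library (4.66 to 9.08). Of 8 B cell genes, MS4A1, CD79B, PAX5 and BLK had 0 reads in every library, and the summed RPKM of 1.93, 1.93 and 1.27 was mostly BANK1, with 220, 385 and 136 reads. Of 12 T and NK cell genes, CD3D, CD3E, CD2 and PRF1 had 0 reads in all 3. CD3G and CD8A had 10 and 12 reads in the stillborn library and 0 in the others. The summed RPKM was 4.63, 1.70 and 18.4. It was led by GZMB and GNLY at 8.44 and 8.84 in the alive library and by NCAM1 at 1.22 in the abortion library. GZMB and GNLY were apart as lower than alive in the abortion library, by 37.2-fold (17.7 to 93.9) and 33.6-fold (15.1 to 93.1), beside 0.898% of all genes. In the stillborn library they were 4.18-fold (2.88 to 6.22) and 5.23-fold (3.29 to 8.71) lower than alive, beside 1.87%. The part of these cells in the levels of MHC-DPB1 was not tested.

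The lining and stromal lists held 1 gene apart by the 4-fold rule. Of 8 epithelial genes, led by the keratins KRT19 and KRT5, 0 were apart in any comparison, near the background of 0.898% to 2.73%. Their medians were -0.01, -0.06 and -0.14, but smaller differences went both ways beyond counting error. In the stillborn library KRT5 was 2.75-fold lower (2.68 to 2.82) and EPCAM 2.35-fold higher (1.98 to 2.80) than in the alive library. Of 7 fibroblast genes 1 was apart, THY1, a surface glycoprotein, 4.55-fold lower in the stillborn than in the alive library (3.85 to 5.40), beside 1.87% of all genes called lower, and the summed RPKM was 304, 337 and 242.

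**Figure D5:**
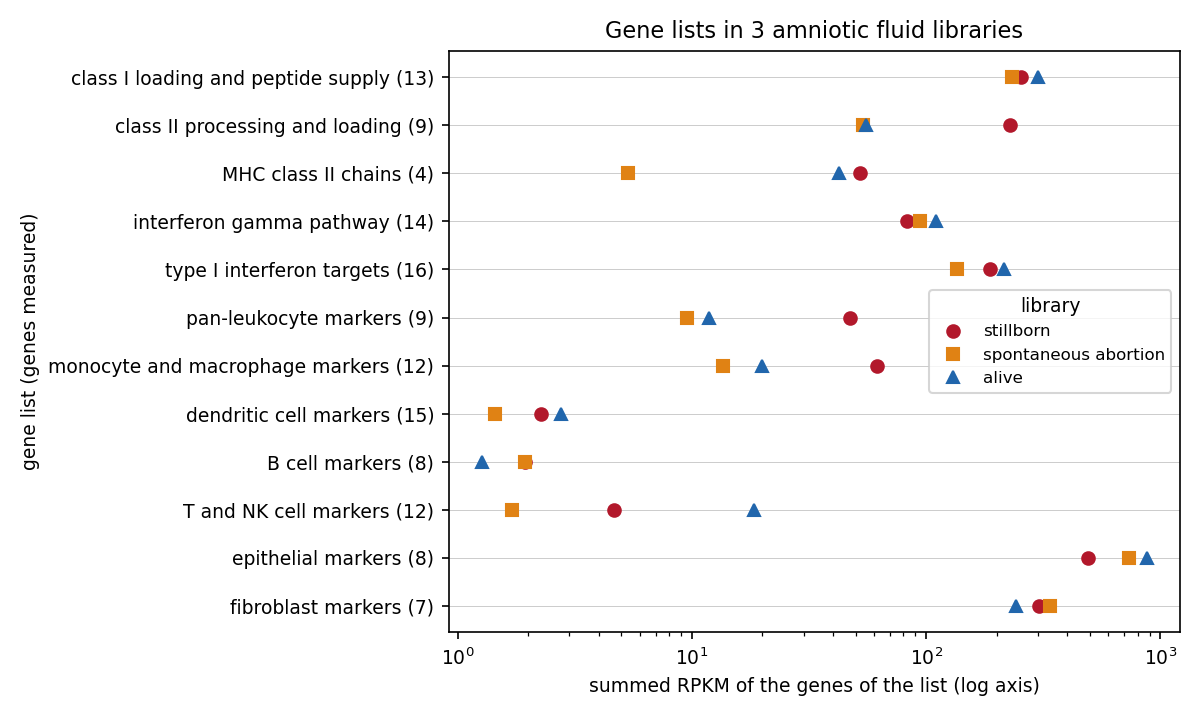
Summed RPKM (log axis) of 12 gene lists. The sum of the 4 class II chains with a symbol (MHC-DRA, MHC-DQA1, MHC-DQB1 and MHC-DPB1) is lowest in the abortion library (5.34 against 52.3 and 42.3). It includes MHC-DPB1, at 0.888 there against 30.7 and 30.1, whereas MHC-DQB1 was not lowest there (0.623 against 0.472 in the alive library). The class II processing list and the pan-leukocyte markers are high in the stillborn library alone (228 and 47.1).

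The genes whose levels over the 3 libraries were most like those of a member were found by the distance between centred values of log2(RPKM + 0.1), among 8388 genes that have a symbol and average RPKM 1 or more. With 3 libraries many genes can lie close. For MHC-DPB1 the nearest was HPGDS, a prostaglandin D synthase, at a distance of 1.10 and RPKM 7.38, 0.113 and 2.62, followed by IGFBP1 (1.29), DEFB124 (1.42), RNASE6 (1.65) and SPESP1 (1.78). CD74 lay much closer to its neighbours, BIN2, a membrane-binding protein of leukocytes, at 0.0726 with RPKM 2.42, 0.378 and 0.904, then IGFL1 (0.281), C12H9orf152 (0.283), SCPEP1 (0.327) and PLLP (0.335). The nearest to TAP1 was SRXN1, a reductase of oxidised peroxiredoxins, at 0.00677 with RPKM 2.29, 1.02 and 1.73, and then PLA2G1B, CLIC6, SNX22 and EBPL.

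Levels of different members are hard to compare even per length. The gene length that each deposited RPKM implies was 1091 bases for MHC-DPB1, 2516 for B2M, 2548 for TAP2, 3648 for TAPBP, 5144 for CD74, 5957 for TAP1, 46708 for CIITA and 54108 for NLRC5. Across genes with at least 100 reads in every library, the implied length rose with the number of transcripts in the RefSeq table, from a median of 2494 bases over 2551 genes with 1 transcript to 27313 bases over 562 genes with 9 to 16. CIITA has 8 and NLRC5 10 transcripts in that table, and MHC-DPB1 and TAP2 have 1 each. As RPM, reads scaled to the library total alone, the stillborn, abortion and alive libraries held 33.5, 0.969 and 32.8 for MHC-DPB1, 11.8, 1.97 and 4.70 for CD74, and 0.507, 0.0668 and 1.43 for CIITA. For NLRC5 these values were 0.845, 0.969 and 2.37, and for B2M 93.3, 40.7 and 36.5. Ratios of 1 gene between libraries do not depend on that length.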

How the data were processed

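Cell-free RNA was amplified with an Ovation SPIA kit and sequenced on a HiSeq2500, per the labels' protocols. Per the submitters' processing notes, bcl2fastq 2.17, STAR and HTSeq were used. Versions of STAR and HTSeq, build, annotation, strandedness and gene lengths were not given in the sources used here. Deposited values are RPKM, 1 per gene and library.

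Totals and gene lengths are whole numbers, which allowed whole reads to be recovered from the deposited RPKM for 23275 of 23276 genes above 0. A factor shared by all reads and the length of a gene cannot be seen, so reads are lower bounds, with a sum of 96.6% to 97.1% of the totals. In simulated data 3 of 3 totals came back, and the reads of 92.5% of 4510 genes with reads in every library were right, with 0 genes above the truth.

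Libraries were scaled by TMM (factors 0.936, 1.02 and 1.05 for stillborn, spontaneous abortion and alive) with numpy 2.4.6. Ratios have exact Clopper-Pearson 95% intervals given the sum of both reads (scipy 1.17.1), which cover counting error only. A library with 0 reads was taken as having 3. The 4-fold rule was tested on simulated reads for stillborn over alive over 23275 genes, with counting error alone. It recovered 100% of 200 genes changed 8-fold and called 0 unchanged genes. A gene with under 30 reads in both libraries cannot be called, and in the real data 13500 genes reached 30 reads in either. The recovery therefore does not hold for genes below that depth. List medians use log2(RPKM + 0.1) over genes that average RPKM 1 or more, a scale that understates the differences of low genes.

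Symbols for LOC names come from NCBI RefSeq (assembly mChlSab1.0.hap1), and no coordinates are printed since the build of the files is not given. Class I heavy chains carry no symbol in that table and were not analysed here, nor were class II genes without one. CTSS, MARCH1, MARCH8, GBP1, GBP5, CLEC4C, IL3RA and AIF1, on the lists by name, were not analysed here either. Reads of close MHC paralogs, and of genes that overlap or run antisense, may be mixed in these values. Class II genes are polymorphic, and how alleles unlike the reference aligned was not tested. Members and lists were chosen with earlier results of these data known. Named genes are all members, MHC class II genes, and of each list those with the highest mean RPKM, those apart in any comparison and defining genes at 0. Further genes were added after their values were seen. These were MHC class II genes with a mean RPKM under 1, the neighbours of TAP1 and genes of known role in the pathway. Genes whose order differs from or resembles that of a member, and genes that depart from the rest of their list, were added in the same way.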

Additional observations from a re-analysis of the deposited data

How the results depend on the processing

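Of 237 values recomputed under other settings, 201 were labelled the same. For ratios under another scaling this meant the same direction and the same side of the interval rule for 1. Ratios with a pseudocount had to stay inside the main interval, and counts within 1.5 times. List medians had to keep their sign and not fall to 0.00. A value not labelled the same may therefore have kept its direction. Total assigned reads moved the median of all genes from -0.01 to -0.17 (log2) for stillborn over alive and from -0.02 to -0.14 for stillborn over spontaneous abortion, and put no member on the other side of 1; with it the interval of MHC-DPB1 for stillborn over alive held 1 (ratio 1.02). Medians then changed sign for class I loading (-0.04), promoter factors (-0.11) and fibroblasts (-0.02) in stillborn over alive and for interferon gamma genes (-0.06) and B cell markers (-0.05, 1 gene) in stillborn over spontaneous abortion, and without the filter medians fell to 0.00 for type I interferon targets in stillborn over alive, for interferon gamma genes in stillborn over spontaneous abortion, and for B cell markers and T and NK cell markers in all 3 comparisons (T and NK cells from -2.01, -4.60 and 2.29, B cells from 0.97, 0.91 and 0.07). Medians that kept their sign still changed by over 1.5 times in size in 11 of 42 without the filter, 13 of 42 with RPKM + 1 and 11 of 42 with total assigned reads. The counts of members apart (0, 1 and 2) were the same with either other scaling and with libraries thinned to the smallest total. They were 4, 4 and 4 at 2-fold, and with a minimum of 10 reads CIITA made the count for spontaneous abortion over alive 2. Pseudocounts pull low genes to 1 by construction. With RPKM + 0.1 the ratios of CIITA were 0.863, 0.784 and 1.10 for stillborn over alive, spontaneous abortion over alive and stillborn over spontaneous abortion, and those of NLRC5 0.822 and 0.829 over alive. With RPKM + 1 CIITA gave 0.983, 0.973 and 1.01, NLRC5 0.976 and 0.977 over alive, CD74 1.84, 0.735 and 2.50, MHC-DPB1 0.0629 for spontaneous abortion over alive and 18.1 for stillborn over spontaneous abortion, TAP1 0.828 and 1.47 in the same comparisons, and TAPBP 1.75 for spontaneous abortion over alive. No paired analysis was possible because each group has 1 sample. Depth limits TAP2, CIITA, MHC-DQA1, MHC-DMB, MHC-DOA and MHC-DOB, which had at most 29 reads in a library.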
